A study of Saccharomyces cerevisiae with 18 samples.

Results

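A pair of haploid budding yeast strains growing in 3% ethanol were compared by their transcript levels. The members are all the arrays whose labels give a haploid strain at 3% ethanol, which is 4 of the 18 arrays of the series: 2 for the strain labelled alpha and 2 for the strain labelled a. The study as a whole grew these haploids and a diploid of Saccharomyces cerevisiae with 0%, 3% or 7% ethanol by volume and hybridised total RNA to Affymetrix yeast arrays, 2 per strain and ethanol level. Every culture was a fermentor of rich glucose medium sampled in the middle of exponential growth, and all the strains are described as tolerant of ethanol. Ethanol was thus present at the same level in both groups compared here, and the groups differ in strain. The labels give no strain names, no genotypes beyond the mating type and no parentage, so a difference between the groups is a difference between these strains, whatever alleles they carry. They also do not say whether the arrays of a group came from separate fermentors, so the errors cover whatever differs between the samples of a group, which may be technical. In cultures of many cells, fewer cells with a transcript and less of it per cell cannot be told apart.

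Yeast cells divide their transcription between growth and protection. When nutrients and growth signalling are ample, the genes for making ribosomes and nucleotides are expressed strongly. When protein kinase A and TOR signalling are weak, the activators Msn2 and Msn4 turn on a general stress programme that includes small heat shock proteins, catalase, trehalose and glycogen. Genes of respiration are governed separately, by the activators Hap1, which senses heme, and the Hap2/3/4/5 complex, and are held down while glucose is plentiful. Laboratory, wild and industrial strains also differ in the families of membrane and cell surface genes that lie near chromosome ends or in tandem arrays.

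The mating-type transcripts did not separate the strains in the way the labels do. MF(ALPHA)1, the precursor of the pheromone made by alpha cells, had scaled signals of 4536 and 4049 on the arrays labelled alpha and 4721 and 4863 on those labelled a. The probe set for the alpha1 activator, named for its silent copy HMLALPHA1, read 635 and 694 against 645 and 658, and it reads a related gene too. HMRA1, which encodes the a1 regulator, lay below the background limit on all 4 arrays, while the diploid had a mean of 39.7 at 3% ethanol. STE2, the receptor of a cells, read 22.1 and 23.9 against 18.6 and 23.5. Both haploids therefore had the transcripts of alpha cells, and the second group is called the strain labelled a throughout. Levels are in units of scaled signal, a difference is on the log2 scale of the scaled signal plus 16, and a positive one means a higher level in the strain labelled alpha. Folds are on that same scale, which makes the folds of dim transcripts look smaller than their signals alone would, except those written as "at least", which are of the scaled signal without the added 16. "Higher" and "lower" are kept for genes with an adjusted p under 0.05. The 4 arrays were alike in these measures: 5229 to 5297 of the 5363 genes tested lay above an array's background limit, and the 3' to 5' ratio of the ACT1 control was 1.14 to 1.23. The 5229, on alpha replicate 2, was the fewest of the 18 arrays. Before scaling, the trimmed mean signals were 424 and 427 on the alpha arrays and 467 and 458 on the a arrays, so intensity differed by strain. The 18S rRNA control read 1461 and 197 on the alpha arrays and 148 and 1280 on the a arrays, so it varied within both strains. The SD between the arrays of a strain was 0.125 for alpha and 0.158 for a on the log2 scale.

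At 3% ethanol most listed genes of general stress, storage carbohydrate and the respiratory chain were lower in the strain labelled alpha than in the strain labelled a. Most listed genes of ribosome biogenesis were higher. Of 29 purine and pyrimidine genes, 12 were higher, 2 were lower and 15 did not pass. Of 5363 genes, 1968 (36.7%) passed the threshold, 943 higher (17.6%) and 1025 lower (19.1%). These shares of all genes are the background for every list count below, and no list was tested as a set. The genes that differed by 2-fold or more were mostly lower ones: 146 were lower and 55 higher in the strain labelled alpha. The median difference over all genes was 0.01. The split of calls turned with the scaling, to 1148 higher and 871 lower with median centring (median 0.06) and to 1104 and 964 with quantile normalisation (median 0.03). Without scaling between arrays it was 360 higher and 987 lower, the median moved to -0.09, and under each of these scalings all 201 genes with a difference of 2-fold or more kept their call.

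**Figure D1:**
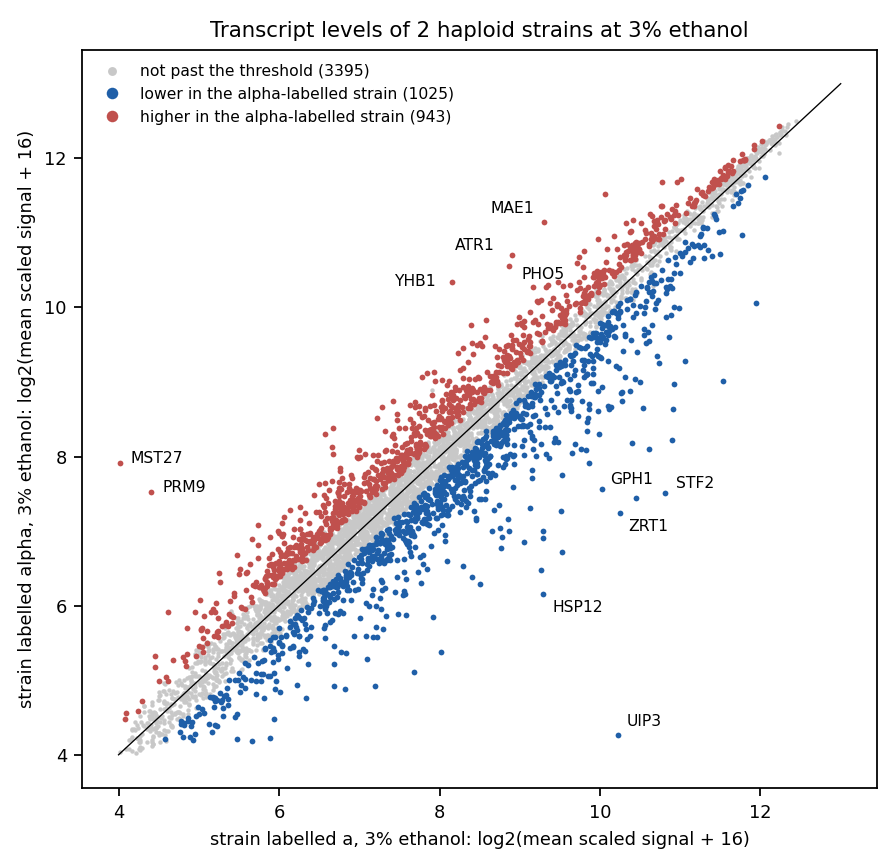
Each point is 1 of 5363 genes, at its mean level on the 2 arrays of the strain labelled a (horizontal) and of the strain labelled alpha (vertical), both as log2 of the scaled signal plus 16 at 3% ethanol. UIP3, below the diagonal line, stands farthest from it, then MST27 above the line, then STF2 and HSP12 below it and PRM9 above it.

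Most of the named genes with the largest lower levels encode proteins of stress, storage and respiration. STF2, which binds the ATP synthase and its inhibitor and protects dry cells, read 177 and 157 on the alpha arrays and 1773 and 1799 on the a arrays. It was 9.86-fold higher in the strain labelled a, with a log2 difference of -3.30 ± 0.0877 (SE, adjusted p = 2.00e-16). HSP12, a small heat shock protein that stabilises membranes, read 54.7 and 55.9 against 541 and 682, a difference of -3.13 ± 0.13 (SE, adjusted p = 1.62e-13). The arrays of each strain lay close together for both genes. The strains did not overlap, which was a condition for a place among the 15 largest differences. At the same ethanol level the diploid had a mean of 55.02 for HSP12, near the strain labelled alpha, and of 1227 for STF2, between the haploids.

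ZRT1, the high-affinity zinc transporter, read 145 and 125 on the alpha arrays and 1228 and 1169 on the a arrays, 8.07-fold higher in the strain labelled a (adjusted p = 2.23e-13). GPH1, the glycogen phosphorylase that releases glucose from glycogen, read 154 and 164 against 1278 and 1496 (8.01-fold, adjusted p = 2.89e-15). SNO1, which with SNZ1 makes vitamin B6, read 97.01 and 81.5 against 724 and 723 (7.05-fold, adjusted p = 2.15e-14). For these genes too, every a array lay above every alpha array, as the choice of genes required. CYC7, the cytochrome c isoform of low oxygen, read 67.6 and 78.6 against 595 and 605 (6.93-fold), and CYC1, the isoform of aerobic growth, 115 and 108 against 673 and 543 (4.87-fold). Both cytochrome c transcripts were thus lower in the strain labelled alpha, with adjusted p = 2.15e-14 and 1.55e-10. The others among the 15 largest were UIP3, described with its family, RTC3 (-2.68), the cytosolic catalase CTT1 (-2.63), YDR003W-A (-2.58), EGO4 (-2.52), the chaperone HSP26 (-2.50), the glutamate decarboxylase GAD1 (-2.46) and the stress gene DDR2 (-2.36), as log2 differences.

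On the higher side the largest differences belonged to 2 membrane protein genes, MST27 and PRM9, and then to genes of detoxification, transport and nucleotide metabolism. YHB1, the flavohemoglobin that breaks down nitric oxide, read 1245 and 1321 on the alpha arrays and 283 and 255 on the a arrays, 4.56-fold higher in the strain labelled alpha (2.19 ± 0.0793, SE, adjusted p = 2.15e-14). MAE1, the mitochondrial malic enzyme, read 2338 and 2144 against 629 and 604 (3.57-fold, adjusted p = 2.33e-11). ATR1, a multidrug exporter, read 1735 and 1579 against 438 and 491 (3.48-fold, adjusted p = 6.82e-12). The strains did not overlap for these 3 genes, again a condition of the choice. FUR4, the uracil permease, read 318 and 281 against 71.99 and 86.6 (3.31-fold). AAH1, the adenine deaminase of purine salvage, read 319.5 and 316 against 91.02 and 80.3 (3.29-fold), and URA7, a CTP synthase, 398 and 426 against 161 and 149 (2.51-fold). These 3 serve the supply of purines and pyrimidines. GAT1, a GATA activator of nitrogen catabolite genes (1.47), MEP2, an ammonium transporter (1.36), the acid phosphatases PHO5 (1.70) and PHO3 (1.37), the mannoprotein TIR4 of the cell wall (1.45), the nucleolar chaperone SRP40 (1.38) and YBL029W (1.36) make up the rest of the 15.

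**Figure D2:**
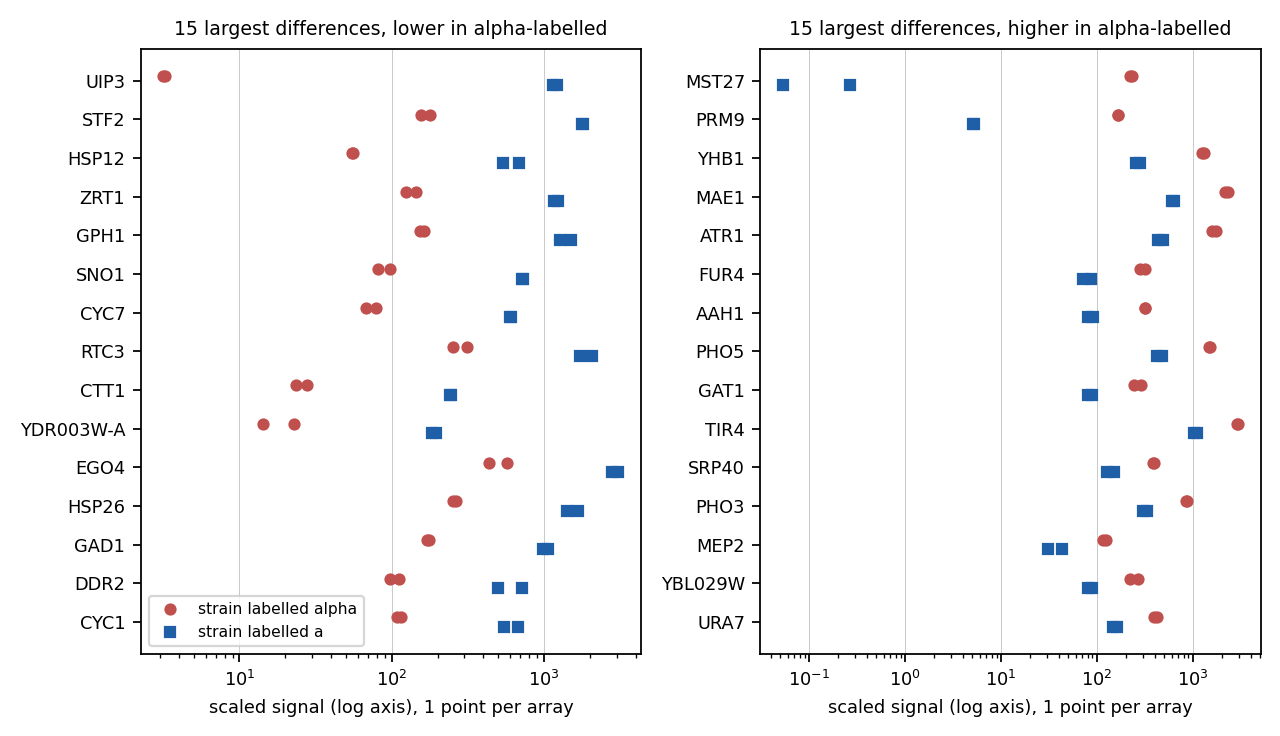
Scaled signal on each of the 4 arrays at 3% ethanol (log axis) for the 15 genes with the largest lower (left) and the 15 with the largest higher (right) level in the strain labelled alpha. Circles are the 2 arrays of the strain labelled alpha and squares the 2 of the strain labelled a. The strains do not overlap for any of the 30 genes, which were chosen for that, and UIP3, MST27 and PRM9 are near or under background in 1 strain.

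The general stress programme was lower in the strain labelled alpha almost throughout. Of the 30 tested members of a list of Msn2 and Msn4 targets, 26 were lower and 0 higher, where 19.1% of all genes were lower, and the median difference was -1.38 against 0.01 over all genes. RTC3, a stress protein of the cytosol, read 254 and 311 on the alpha arrays and 2078 and 1713 on the a arrays (-2.68 ± 0.184, SE). CTT1 read 23.6 and 27.7 against 240.3 and 245 and HSP26, which keeps unfolding proteins from clumping, 254 and 263 against 1673 and 1420.0. Their differences of -2.63 ± 0.214 and -2.50 ± 0.102 (SE) had adjusted p = 5.43e-09 and 1.17e-13. GAD1 read 172 and 176 against 992 and 1063 and DDR2 96.97 and 112 against 501 and 720.5. Each of these had 2 high arrays in the strain labelled a and 2 low ones in the strain labelled alpha, and each was among the 15 largest, chosen for no overlap. The 4 members that did not pass were YGP1 (0.06), HOR7 (-0.12), ALD3 (-0.19) and GRE3 (-0.24). Of the activators themselves, which were looked up after these values were seen, MSN4 was lower at 237 and 203 against 342 and 324 (-0.57 ± 0.121, SE, adjusted p = 8.62e-04), and MSN2 read 273 and 285 against 337 and 322 (adjusted p = 0.0958).

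Storage carbohydrate genes lay lower too. Of 20 genes of trehalose and glycogen metabolism, 16 were lower and 0 higher, with a median of -1.02. They include both the synthetic and the degrading enzymes. For trehalose, the synthase subunit TSL1 read 515 and 461 against 1883 and 1974 (-1.95 ± 0.0813, SE, adjusted p = 1.62e-13), and the phosphatase TPS2 read 404 and 360.0 against 1119 and 1058 (-1.47 ± 0.0764, SE, adjusted p = 6.29e-12). The trehalase NTH1 had a difference of -1.38. For glycogen, the synthases GSY1 and GSY2 differed by -1.50 and -1.61, the branching enzyme GLC3 by -1.50 and the debranching enzyme GDB1 by -1.68, beside GPH1. PGM2, the main phosphoglucomutase, which makes the glucose 1-phosphate both pathways start from, read 389 and 377 against 1908 and 1904 (4.82-fold higher in the strain labelled a, adjusted p = 2.46e-14). Its minor partner PGM1 did not pass (0.17), nor did GLG2, GAC1 and PIG1.

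Transcripts of each respiratory complex were lower. All but 1 of the 36 tested genes of the respiratory chain and ATP synthase were lower in the strain labelled alpha, 35 in all with 0 higher, and the median difference was -0.91. In the cytochrome bc1 complex, the Rieske protein RIP1 read 547 and 474 against 1356 and 1393 (-1.40 ± 0.0744, SE, adjusted p = 8.25e-12) and QCR7 637 and 638 against 1652 and 1665 (-1.36 ± 0.0803, SE, adjusted p = 4.54e-11). In cytochrome c oxidase, COX7 differed by -1.53, COX5A by -1.40 and its isoform of low oxygen, COX5B, by -1.36. NDI1, the inner NADH dehydrogenase, differed by -1.69, and CYB2, the lactate dehydrogenase that feeds cytochrome c, by -1.77. The subunits of the ATP synthase ranged from -0.18 for ATP1, the 1 gene of the list that did not pass, and -0.20 for ATP2 to -0.92 for ATP14. In the citric acid cycle and glyoxylate list, 13 of 29 were lower and 3 higher, with a median of -0.25. LSC2, a subunit of succinyl-CoA ligase (217 and 214 against 440.3 and 415), and the succinate dehydrogenase genes SDH1 (414 and 376 against 695 and 769) and SDH4 (785 and 759 against 1245 and 1259.5) were among the lower ones, and the lactate dehydrogenase DLD3 was the largest higher one (1218 and 1281 against 695 and 579, adjusted p = 4.28e-08).

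Genes for making mitochondrial proteins were lower too. Of 64 genes in a list of mitochondrial ribosome genes, 57 were lower and 0 higher, with a median of -0.53. MRPL32 read 154 and 148 against 307 and 314 (-0.97 ± 0.0987, SE, adjusted p = 1.55e-07), RSM28 100.2 and 89.3 against 193 and 191 (-0.91 ± 0.108, SE, adjusted p = 1.26e-06) and MRPL15 132 and 125 against 230.3 and 236 (-0.79 ± 0.0989, SE, adjusted p = 2.59e-06). The list also holds MRP8 (-1.05), which despite its name is not an established ribosomal protein. ALD4, the mitochondrial aldehyde dehydrogenase that turns acetaldehyde into acetate, read 394 and 381 against 1449 and 1481 (3.67-fold higher in the strain labelled a, adjusted p = 2.15e-14). The cytosolic ALD6 read 593 and 564 against 1250.5 and 1075 (1.98-fold, adjusted p = 3.50e-08). In the list of ethanol and acetaldehyde metabolism as a whole, 6 of 22 genes were higher, 1 without scaling, and 6 lower.

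Among genes tied to heme and oxygen, 6 of 22 were higher and 7 lower. ROX1, the repressor of genes for low oxygen, read 625 and 562 against 1772 and 1618 and was lower in the strain labelled alpha (-1.49 ± 0.0822, SE, adjusted p = 1.50e-11). HEM13, a heme synthesis enzyme that Rox1 represses, read 3329 and 3386 against 2163 and 1938 and was higher (0.71 ± 0.0721, SE, adjusted p = 1.47e-07). AAC3, the ADP/ATP carrier of low oxygen (1108 and 1153 against 741 and 749.6), and the sterol importers AUS1 (1253 and 1179 against 574 and 676) and PDR11 (389 and 341 against 148 and 175) were higher as well. CYC7 and COX5B, which Rox1 also represses, were lower, so these genes did not all lie on the same side. HMG1, the main HMG-CoA reductase of sterol synthesis, was lower at 159.8 and 128 against 289.6 and 322 (-1.02 ± 0.112, SE, adjusted p = 4.95e-07). The transcripts of the activators, looked up after these values were seen, did not pass: HAP1 read 354 and 306 against 309.8 and 301 (adjusted p = 0.47) and HAP4 128 and 136 against 152 and 144 (adjusted p = 0.351).

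Oxidative defence genes were mainly lower, 15 of 28 with 1 higher and a median of -0.36. Beside CTT1 these included TSA2, a peroxiredoxin of the cytosol (44.5 and 38.4 against 254 and 198, adjusted p = 2.54e-10), PRX1, its mitochondrial relative (427 and 357 against 1202 and 964, adjusted p = 1.48e-09), and the glutaredoxin GRX2 (717 and 748 against 1550.0 and 1543, adjusted p = 1.73e-08). Among heat shock chaperones, 11 of 27 were lower and 7 higher: the stress-induced SSA4 (61.9 and 49.01 against 164 and 183, -1.41 ± 0.113, SE), HSP42 (266 and 221 against 562 and 472, -1.04 ± 0.11, SE) and the disaggregase HSP104 (737 and 746 against 1264 and 1370.5, -0.81 ± 0.0982, SE) were lower. The Hsp40 co-chaperone YDJ1 (1485 and 1470.3 against 962 and 771), the Hsp90 co-chaperone AHA1 (1337 and 1357 against 1045 and 862) and the Hsp110 gene SSE1 (2169 and 2017 against 1442 and 1545) were higher, by 0.77 ± 0.101, 0.50 ± 0.0774 and 0.48 ± 0.09 (SE). Of the chaperones, 4 were higher without scaling, and 7 were lower with median centring or without alpha replicate 1. Folding genes of the endoplasmic reticulum were higher in 10 of 16 cases and lower in 1, with a median of 0.30. That count was 1 without scaling between arrays and 6 without either alpha replicate 1 or a replicate 2. The largest of these differences was that of the calnexin CNE1 (217 and 203 against 136 and 128, adjusted p = 1.04e-04).

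**Figure D3:**
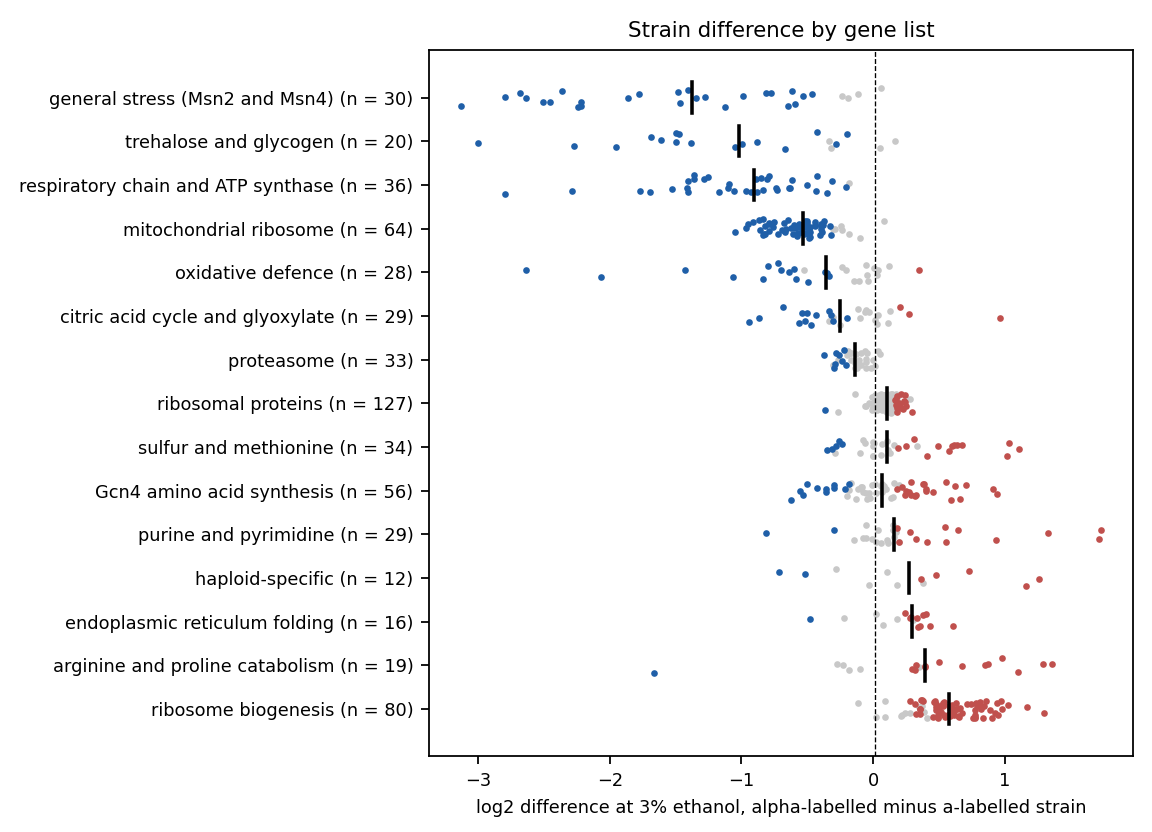
Log2 difference at 3% ethanol (strain labelled alpha minus strain labelled a) of every tested member of 15 gene lists. Blue points passed the threshold as lower, red as higher, grey did not pass; thick bars are list medians and the dashed line is the median of all genes, 0.01. General stress, storage and respiratory genes lie to the left and ribosome biogenesis genes to the right.

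Genes for building ribosomes lay on the other side. Of 80 ribosome biogenesis genes, 68 were higher in the strain labelled alpha and 0 lower, where 17.6% of all genes were higher, and the median difference was 0.58. Without scaling between arrays, or without a replicate 1, 45 of the 80 were higher. HAS1, an RNA helicase of both subunits' assembly, read 314 and 387 against 142 and 124 (1.29 ± 0.126, SE, adjusted p = 8.23e-08). UTP20, a component of the processome for the small subunit, read 260.2 and 232 against 104 and 132 (0.97 ± 0.11, SE, adjusted p = 6.57e-07), and NOP1, the methyltransferase fibrillarin, 2329 and 2128 against 1188 and 1336 (0.81 ± 0.0934, SE, adjusted p = 8.19e-07). BRX1, which acts in assembly of the large subunit, read 520.3 and 505 against 307 and 287. The ribosomal proteins themselves differed little, with a median of 0.11, 18 of 127 higher and 1 lower, a share near the 17.6% of all genes. Without scaling 0 were higher, and without alpha replicate 2 or a replicate 2, 4 and 5. The lower one was RPL15B (245 and 237 against 319.5 and 312, adjusted p = 0.0149). Its call was lost without alpha replicate 2 or a replicate 1.

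Genes that supply nucleotides and nitrogen were higher in several pathways. In purine and pyrimidine synthesis and salvage, 12 of 29 genes were higher and 2 lower (median 0.16), and 7 were higher without scaling between arrays. Beside FUR4, AAH1 and URA7, IMD4, an IMP dehydrogenase of GTP synthesis, read 1569.5 and 1672 against 803 and 879 (0.93 ± 0.0785, SE, adjusted p = 9.33e-09). URA10, the minor orotate phosphoribosyltransferase, lay the other way (213 and 195 against 381 and 362, adjusted p = 7.15e-07). Of 19 genes for the use of poor nitrogen sources, 13 were higher and 1 lower (median 0.39), and 7 were higher without scaling. The higher ones included MEP2 (124 and 116 against 43.1 and 31.2), the allantoinase DAL1 (51.4 and 37.6 against 8.45 and 8.69) and the general amino acid permease GAP1 (95.97 and 96.6 against 27.2 and 47.2). PUT1, the proline oxidase in mitochondria, was the lower one (23.6 and 39.8 against 144 and 122, -1.66 ± 0.142, SE, adjusted p = 1.18e-08). GAT1 read 285 and 244 against 90.05 and 79.97 (2.77-fold, adjusted p = 1.72e-08). The strains did not overlap for any of these genes, which was a condition of the choice for MEP2 and GAT1. Among amino acid permeases 10 of 21 were higher, 6 without scaling, and 3 lower: DIP5, for acidic amino acids, read 529 and 473 against 251 and 272, while AGP2 (42.4 and 52.99 against 129 and 135) and AGP1 (447 and 333 against 775 and 768) were lower.

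Amino acid synthesis genes lay on both sides at 3% ethanol. Of 56 targets of Gcn4, 21 were higher and 11 lower (median 0.07), where 17.6% of all genes were higher and 19.1% lower. At 0% ethanol 35 of the 56 were higher and 1 lower (median 0.27), where 34.7% and 15.8% of all genes were. At 7% the counts were 34 and 9 (median 0.30), where 17.2% and 28.7% of all genes were. The leucine genes LEU1 (1900.0 and 1929 against 1019 and 965, 0.94 ± 0.0762, SE, adjusted p = 5.43e-09) and LEU2 (3105 and 3426 against 1709 and 1748, 0.91 ± 0.0685, SE, adjusted p = 1.77e-09) and LYS4 of lysine synthesis (1077 and 1117 against 665 and 669) were higher. The arginine genes ARG8 (1095 and 1224 against 1952 and 1648, adjusted p = 3.73e-06) and ARG3 (1223 and 1210.0 against 1937 and 1657, adjusted p = 1.47e-05) and HIS5 of histidine synthesis (1366 and 1426 against 2197 and 1876, adjusted p = 3.24e-04) were lower. In sulfur and methionine metabolism 13 of 34 were higher and 5 lower (median 0.11). MET3, the ATP sulfurylase that starts sulfate assimilation, read 1203 and 1232 against 539 and 573 (1.11 ± 0.109, SE, adjusted p = 8.54e-08), and the methionine permeases MUP1 (934 and 923 against 592 and 613) and MUP3 (127 and 97.98 against 40.5 and 54.6) were higher too. Without scaling, 8 Gcn4 targets and 8 sulfur genes were higher, and without alpha replicate 2, 7 Gcn4 targets were lower. The sulfur list held 1 to 3 lower calls in place of 5 in refits without a replicate, without scaling, with median centring or on the 4 arrays alone. For vitamins, 13 of 29 genes were higher, 6 without scaling, and 3 lower. The 3 were SNZ1 (1093 and 1010.2 against 4017 and 3833, 3.69-fold higher in the strain labelled a, adjusted p = 2.15e-14), its partner SNO1, and BNA1 of NAD synthesis (498 and 481 against 968 and 901).

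Transport of metals, phosphate and drugs differed in single genes of each list. The shares of the zinc, iron, phosphate and drug lists that passed lay near the 36.7% of all genes, so these counts mark no trait of the lists. Of 15 zinc genes 3 were higher, 0 without scaling, and 3 lower. ZPS1, which like ZRT1 is a target of the zinc regulator Zap1, read 140.3 and 146 against 526 and 563 (3.52-fold higher in the strain labelled a, adjusted p = 7.01e-11). Of 29 iron genes 8 were lower, but 3 without alpha replicate 2 or a replicate 2, and 2 higher, SMF3 (517 and 501 against 298 and 329), a vacuolar iron exporter, and ISU2 (906 and 773 against 557 and 473), an iron-sulfur scaffold. In the list for metal and arsenic resistance, 5 of 15 were lower, among them the arsenate reductase ARR2 (11.7 and 17.1 against 119.7 and 143, -2.28 ± 0.12, SE, adjusted p = 7.56e-12), its neighbour ARR3, the arsenite exporter (25.8 and 16.8 against 64.98 and 67.6, -1.15 ± 0.131, SE), and the copper transporter CTR3 (28.6 and 22.4 against 93.3 and 92.6, -1.40 ± 0.153, SE). Phosphate genes were higher in 7 of 25 cases, in 4 without scaling or without alpha replicate 1, and lower in 2. The secreted acid phosphatase PHO5 read 1484 and 1491 against 420.5 and 477 (3.24-fold higher in the strain labelled alpha), PHO3 844 and 859.7 against 305 and 335 and the low-affinity phosphate transporter PHO90 818 and 698 against 335 and 392 (adjusted p = 1.03e-11, 1.78e-09 and 6.98e-08). The lower ones were PHO11 and the nucleotidase PHM8 (42.9 and 49.03 against 148 and 128, adjusted p = 5.07e-07). Of 26 genes of drug resistance 7 were higher, 4 without scaling, and 2 lower. PDR5, the main drug pump, read 676 and 760.1 against 319 and 328 (1.11 ± 0.0933, SE, adjusted p = 9.44e-09) and RSB1, a sphingoid base exporter, 154 and 134 against 60.3 and 60.6. The polyamine transporter TPO4 read 224 and 257 against 549.9 and 597 and was lower (-1.20 ± 0.093, SE, adjusted p = 2.70e-09).

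Cell surface genes went both ways. In the cell wall list 9 of 30 were higher, 4 without scaling, and 8 lower. TIR4 read 2885 and 2958 against 1017 and 1097 and was higher, while SPI1, a wall protein induced by weak acid (281 and 269 against 1349 and 1327, -2.22 ± 0.0953, SE), PIR3 (83.3 and 69.3 against 274 and 323, -1.77 ± 0.141, SE) and CWP1 (370.4 and 377 against 749 and 816, -1.03 ± 0.0867, SE) were lower. Of the cyclins, CLN1 read 275 and 238 against 122 and 102 (1.09 ± 0.108, SE, adjusted p = 1.02e-07), PCL1 80.6 and 61.3 against 36.3 and 27.5 and CLN3 911 and 798 against 442 and 570.1. They were higher, as were 5 of 14 genes of G1 and Start, 3 without scaling, with 2 lower.

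Mating genes differed in level, though both strains had the alpha set. The agglutinin SAG1 of alpha cells read 2218 and 2349 against 1330.3 and 1362 (0.76 ± 0.092, SE, adjusted p = 1.80e-06) and STE3, the receptor for a-factor, 1995 and 2081 against 1438 and 1566 (0.44 ± 0.0892, SE, adjusted p = 6.16e-04, or 0.178 without scaling). These were the 2 of 5 alpha-specific genes that passed. MF(ALPHA)2, the minor alpha-factor gene, read 3157 and 3474 against 2608 and 2896 (adjusted p = 0.0661), and passed in 4 of 15 refits, among them median centring and the fit of the 4 arrays alone. Of 7 a-specific genes 0 were higher and 2 lower, both dim. AGA2, an agglutinin subunit, read 5.35 and 5.16, at or under the limit, against 22.1 and 15.9, at least 2.77-fold higher in the strain labelled a (adjusted p = 5.12e-04), and MFA1, an a-factor gene, 7.59 and 12.7 against 23.2 and 22.2 (adjusted p = 0.049, and up to 0.256 in the 12 of 15 refits that lost the call). MFA2 (23.99 and 28.7 against 30.4 and 35.98), BAR1 (8.24 and 6.59 against 11.5 and 14.7), STE6 (16.8 and 21.5 against 22.9 and 23.03), ASG7 (4.95 and 6.96 against 3.02 and 9.22) and STE2 did not pass. Of 12 haploid-specific genes 5 were higher, 3 without scaling, and 2 lower. HO, the endonuclease that switches mating type, read 83.9 and 89.02 against 41.04 and 15.97 (1.26 ± 0.181, SE, adjusted p = 1.40e-05). AGA1, the anchor subunit of agglutinin, read 684 and 682 against 278 and 316 and the activator STE12 464 and 434 against 255 and 276 (1.16 ± 0.165 and 0.72 ± 0.0937, SE). FUS3 (471 and 433 against 362 and 283) and STE5 (166 and 171 against 125 and 129), the kinase and the scaffold of the pheromone pathway, were higher by less, and both calls were lost without scaling (adjusted p = 0.127 and 0.308). RME1, a repressor of meiosis (432 and 491 against 850.2 and 691), and STE18, the gamma subunit of the pheromone G protein (82.2 and 89.3 against 135 and 124), were lower, the latter not with a pseudocount of 1 or without alpha replicate 1 or a replicate 1. FUS1 (177 and 169.6 against 138 and 122), FAR1 (756 and 732 against 664 and 644), GPA1 (351 and 307 against 393 and 411), STE4 (852 and 758 against 752 and 738) and NEJ1 (132 and 122 against 135 and 126) did not pass. FUS1 lay at the threshold (adjusted p = 0.05) and passed as higher in 8 of 15 refits, quantile normalisation, median centring and the replicate block among them, and GPA1 passed as lower in 2.

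A few genes were at background in 1 strain. By the rule that both arrays of a strain lie at or under the limit and both of the other above it, 27 genes were at background for the alpha label and 5 for the a label. Of these, 20 and 5 passed the threshold, and 12 and 2 differed by a bound of at least 2-fold. The bound sets the bright strain against the background limit, both as scaled signal without the added 16, so it is not comparable with the other folds. The limits were not equal: 6.04 and 7.58 on the alpha arrays and 5.41 and 5.996 on the a arrays. The 7.58, on alpha replicate 2, was the highest of the 18 arrays. The rule was thus easier to meet for the alpha label. HMX1, VEL1, PAI3, CAT8 and PHO92 read above 6.04 on alpha replicate 2 and met the rule through its higher limit. How far the unequal limits account for 27 against 5 was not tested. Since the choice uses the same 4 arrays, the arrays at 0% and 7% ethanol, which it did not use, are given beside it. In 5 genes all 6 arrays of the strain labelled alpha were at or under the limit and all 6 of the other haploid above it, and in 1 gene the reverse held.

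The brightest of them were members of the DUP240 family, related membrane proteins encoded in tandem repeats on chromosomes I and VII and known to vary in number between strains. UIP3 read 3.26 and 3.17 on the alpha arrays at 3% ethanol and 1211 and 1150.5 on the a arrays, at least 174-fold higher in the strain labelled a (adjusted p = 8.43e-21). Over all 3 ethanol levels it read at most 3.46 on the 6 arrays of the strain labelled alpha and 963 to 1462 on the 6 of the strain labelled a. MST27, a DUP240 protein that binds vesicle coats, had the opposite pattern, with 231 and 220.3 on the alpha arrays and 0.0539 and 0.268 on the a arrays, at least 39.6-fold higher in the strain labelled alpha (adjusted p = 2.83e-16). It lay under the limit on all 6 arrays of the strain labelled a and read at least 178 on all 6 of the strain labelled alpha. PRM9, a pheromone-regulated member, read 167 and 168 against 5.29 and 5.08, at least 29.4-fold higher in the strain labelled alpha (adjusted p = 5.56e-14). Over the 3 ethanol levels PRM9 was above the limit on 2 of the 6 arrays of the strain labelled a, at 8.17 or less. It read at least 102 on all 6 of the strain labelled alpha. PRM8, a relative of PRM9 close to MST27 in the gene order, went with UIP3: it read 6.29 and 8.47 against 30.5 and 26.3 and was 1.90-fold higher in the strain labelled a (-0.92 ± 0.2, SE, adjusted p = 0.00103). In the list of COS and DUP240 families, 3 of 11 tested genes were higher, 3 were lower and 5 did not pass. The 4 genes described here all passed, so they do not stand for the families. Each haploid had 2 of these 4 transcripts near or under background and the other 2 above it. The diploid had all 4, with means of 691 for UIP3, 112 for MST27, 80.3 for PRM9 and 75.4 for PRM8 at 3% ethanol. For the first 3 the diploid lay between the haploids, and for PRM8 above both.

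**Figure D4:**
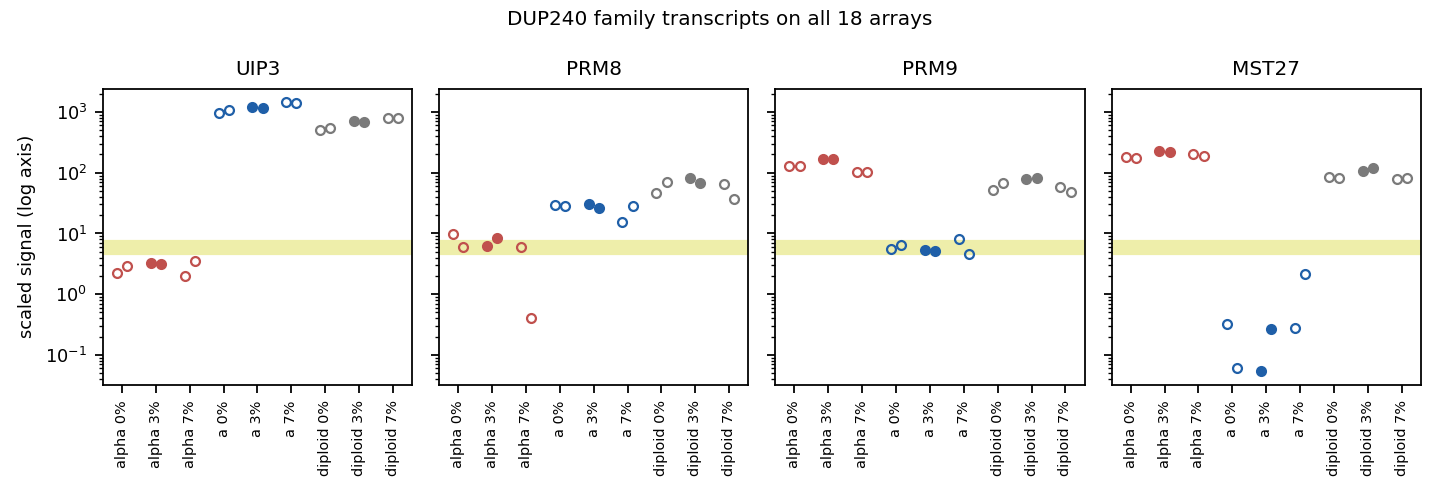
Scaled signal (log axis) of 4 DUP240 genes on all 18 arrays, 1 point per array, by strain and ethanol level. Filled points are the arrays at 3% ethanol, and the band spans the background limits of the arrays. UIP3 and PRM8 are low in the strain labelled alpha, PRM9 and MST27 in the strain labelled a, at each ethanol level, and the diploid is above the band for all 4.

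The other genes at background on all 6 alpha arrays and above it on all 6 a arrays were PHO11, YAR068W, YNL018C and YIL046W-A. PHO11, an acid phosphatase whose probe set reads related genes, read 3.904 and 0.597 against 28.6 and 40.5, at least 5.03-fold higher in the strain labelled a (adjusted p = 6.33e-08). YAR068W, its neighbour, read 3.72 and 1.29 against 33.3 and 23.8 (at least 4.16-fold, adjusted p = 9.49e-07), and YNL018C 4.901 and 2.51 against 19.7 and 19.9 (at least 2.93-fold, adjusted p = 3.21e-05). YIL046W-A did not pass (5.93 and 0.5697 against 7.58 and 8.16, adjusted p = 0.128). Other genes with a large bound were above the limit on some other alpha arrays. HMX1, the heme oxygenase, read 5.401 and 7.44 against 51.01 and 39.1 (at least 6.60-fold, adjusted p = 1.05e-07), and SUE1, which acts in the breakdown of unstable cytochrome c, 0.9403 and 4.58 against 36.5 and 49.4 (at least 6.28-fold, adjusted p = 5.48e-08). Both were above the limit on the 4 alpha arrays at 0% and 7% ethanol.

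Genes that differ by 2-fold or more were neighbours in 8 cases, in the gene order of the RefSeq annotation. In 7 of these both genes differed in the same direction. The number of pairs that 201 of 5363 genes would give by position alone was not worked out. With 146 of the 201 lower, many pairs would share a direction anyway, so the pairs are only described. PHO3 and PHO5, and MEP2 and AAH1, were the pairs higher in the strain labelled alpha. The pairs lower there were SNO1 and SNZ1, ARR2 and ARR3, YAR068W and PHO11, ARE2 and ATP23, and YER053C-A and GIP2. YBL029C-A and YBL029W lay in opposite directions. No chromosome stood apart as a whole: the median difference was -0.02 to 0.04 over the 16 chromosomes, and 25.7% to 43.3% of a chromosome's genes passed. Among the 10 outermost genes of each chromosome arm, 76 of 205 passed (37.1%), beside 36.7% of the other genes. Differences of 2-fold or more were found in 6.34% of the outermost genes and 3.64% of the others.

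The diploid at 3% ethanol gives another reference for the 201 genes with differences of 2-fold or more, as a description with no test. Of the 146 lower in the strain labelled alpha, the diploid mean lay between the haploids for 77 nearer the strain labelled a and for 30 nearer the strain labelled alpha, above both for 29 and below both for 10. CYC7 (730.0) and SNZ1 (4482) are among those above both, PGM2 (1807) among those nearer the strain labelled a, and HSP12, ZRT1 (124) and DDR2 (51.1) among those below both. Of the 55 higher, it lay between them for 19 nearer the strain labelled alpha and 17 nearer the strain labelled a, and below both for 19, AAH1 (50.7), URA7 (95.9) and HAS1 (93.6) among these.

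Most differences of 2-fold or more were also found without ethanol and at 7%, on other arrays of the same strains. Of the 201 genes, 189 passed in the same direction at 0% and 187 at 7%, and 179 at both. Over all 5363 genes the differences at 3% correlated with those at 0% with r = 0.741 and with those at 7% with r = 0.80, which describes genes that share arrays and so are not independent. Of the 943 genes higher at 3%, 637 (67.6%) were higher at 0%, which is 34.2% of the 1862 that were there (34.7% of all genes, or 50.5% with the lower ones), and 567 (60.1%) at 7%, 61.4% of 923 (17.2% of all genes, or 45.9% with the lower ones). Of the 1025 lower, 580 (56.6%) were lower at 0%, 68.6% of 845 (15.8% of all genes), and 853 (83.2%) at 7%, 55.5% of 1537 (28.7% of all genes). Opposite calls were made for 11 and 70 of the higher and lower genes at 0% and for 18 and 3 at 7%. General stress genes were lower at each level, with 28, 26 and 28 of 30 lower at 0%, 3% and 7% and medians of -1.44, -1.38 and -1.71. So were the respiratory genes, with 36, 35 and 34 of 36 lower. The lists with higher genes were less even. Of 80 ribosome biogenesis genes 72, 68 and 39 were higher and 0 lower at each level, with medians of 0.77, 0.58 and 0.32. Of 19 genes for poor nitrogen sources 14, 13 and 5 were higher and 2, 1 and 2 lower. Of 29 vitamin genes 9, 13 and 4 were higher and 4, 3 and 11 lower. Of 29 purine and pyrimidine genes 12, 12 and 17 were higher and 3, 2 and 1 lower. The mitochondrial ribosome genes differed less at 0%: 23 of 64 were lower at 0%, with a median of -0.14, 57 at 3% and 61 at 7%.

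Direct tests of the change of the strain difference between ethanol levels found 1011 genes (18.9%) from 0% to 3% and 342 (6.38%) from 3% to 7%. From 0% to 3% the change was negative for 818 genes (15.3%), meaning a lower level in the strain labelled alpha relative to the other, and positive for 193 (3.6%), with a median over all genes of -0.12. That split depended on the scaling: it was 330 negative and 581 positive with median centring, 350 and 269 with quantile normalisation, and 312 and 41 without scaling. From 3% to 7% it was 241 negative (4.49%) and 101 positive (1.88%), and 151 and 146 with median centring, 147 and 134 with quantile normalisation, 155 and 25 without scaling. Mitochondrial ribosome genes had 25 of 64 negative changes from 0% to 3% and 0 positive (median -0.40), where 15.3% of all genes were negative. That count was 13 with quantile normalisation, 12 with median centring and 6 without scaling. Other lists had many negative changes too. Proteasome genes had 12 of 33 negative and 0 positive, and 11, 7 and 5 negative under the same alternatives. Gcn4 targets had 22 of 56 negative and 4 positive, and 12 and 10 with median centring. Peroxisome genes had 8 of 22 negative and 0 positive. From 3% to 7%, sulfur and methionine genes had 17 of 34 negative and 0 positive (median -0.54), where 4.49% of all genes were negative, and the count was 13, 12 and 14 under the same alternatives.

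Single genes had the largest changes, among them ZRT1, ZPS1, SNO1 and HSP12 from 0% to 3% ethanol and HXT2, FLO11 and MET3 from 3% to 7%. From 0% to 3%, 2 of 15 zinc genes changed negatively and 0 positively, and 3 and 4 of 29 vitamin genes, beside 15.3% and 3.6% of all genes. From 3% to 7%, 2 of 17 hexose transporter genes changed negatively and 0 positively, and 0 and 1 of 8 flocculation genes, beside 4.49% and 1.88% of all genes. ZRT1 had means of 110.5, 135 and 149 in the strain labelled alpha at 0%, 3% and 7% and of 217, 1198 and 714 in the strain labelled a, so the gap was widest at 3%. ZPS1 read 149, 143 and 143 in the first and 139.9, 545 and 199.5 in the second. Its difference was 0.08 at 0%, -1.82 at 3% and -0.44 at 7%. SNO1 fell in both strains from 0% to 3%, from 577 to 89.3 in the strain labelled alpha (adjusted p = 7.37e-13) and from 1459 to 724 in the strain labelled a (adjusted p = 4.26e-07), by more in the first. The change was positive for HSP12, whose mean fell from 1392 to 611 in the strain labelled a (adjusted p = 1.17e-06) and was 47.3 and 55.3 in the strain labelled alpha. HXT2, a glucose transporter, stood at 366 and 473 at 3%, and at 30.3 and 828 at 7%, in the strain labelled alpha and the strain labelled a. FLO11, the adhesin of invasive growth, did not differ past the threshold at 3% (46.9 and 35.7 against 35.9 and 51.2, adjusted p = 0.824) and stood at 909 and 38.5 at 7%. MET3 was higher in the strain labelled alpha at 0% (2.03) and 3% (1.11) and lower at 7% (-0.93).

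**Figure D5:**
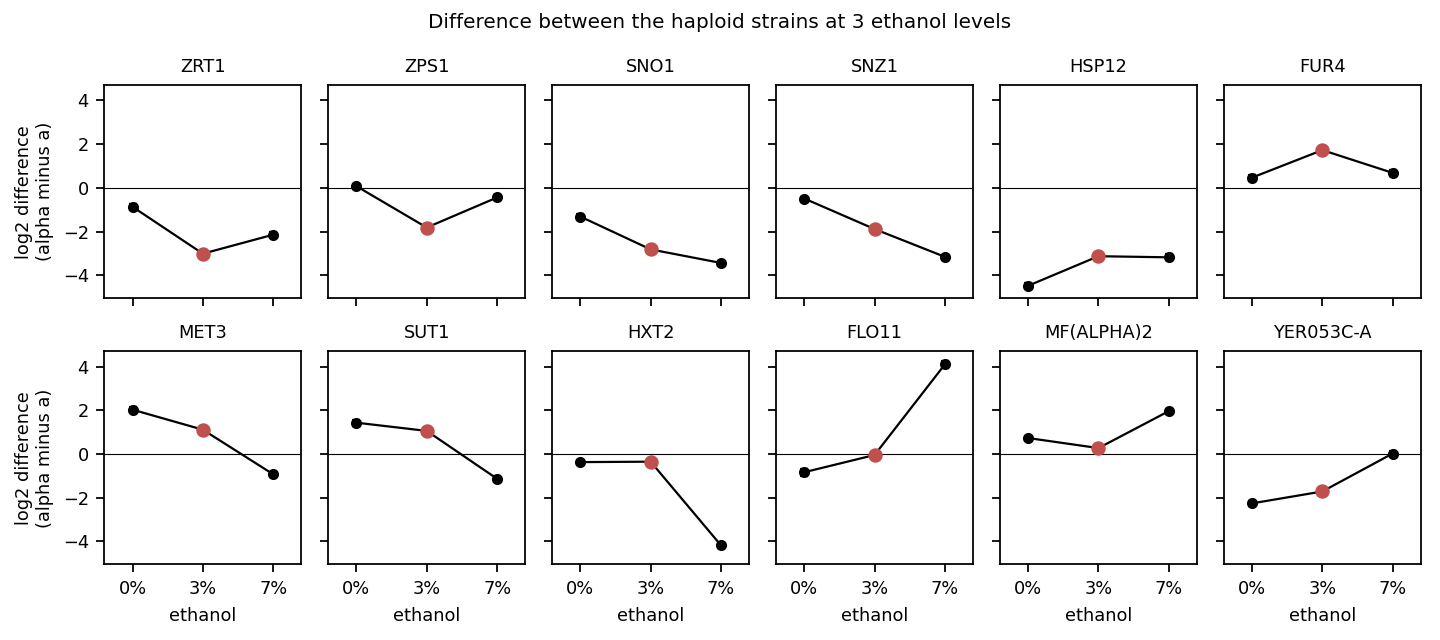
Log2 difference between the haploid strains (alpha minus a) at 0%, 3% and 7% ethanol for 12 genes, with bars of 1 SE that are smaller than the points. The point at 3% is red. ZRT1, ZPS1 and FUR4 differ most at 3%, SNO1 and SNZ1 step down with ethanol, HXT2 and FLO11 part at 7%, and MET3 and SUT1 cross 0 between 3% and 7%.

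Sugar, glycerol and lipid genes differed in some members of each list, where 36.7% of all genes passed. The share of the fatty acid and membrane lipid list lay near that. The hexose transporter, glycolysis, proteasome, histone and meiosis lists were among those under it. The glycerol, ergosterol and pheromone response lists were among those above it. Hexose transporter genes had 2 of 17 higher, one of them HXT3 (1749 and 1751 against 1048 and 1092, 0.70 ± 0.0615, SE, adjusted p = 1.73e-08), and 1 lower, which was 0 with median centring and without alpha replicate 1 or a replicate 2. Glycolysis had 2 of 17 higher, 0 without scaling and 1 without alpha replicate 2, and 3 lower: HXK1 read 738 and 705 against 1551 and 1472 and PYK2, the minor pyruvate kinase, 238 and 249.8 against 462 and 483, both lower (-1.05 ± 0.0681 and -0.91 ± 0.089, SE). Glycerol genes had 6 of 10 lower and 2 higher, with GCY1 (108 and 107 against 267 and 237) lower and GPP1, the glycerol phosphatase (3353 and 3199 against 2040.5 and 1902), higher. Of 29 ergosterol genes 5 were higher and 9 lower, of 30 fatty acid and membrane lipid genes 5 and 6, of 24 glucose-repressed genes 1 and 6, of 33 proteasome genes 0 and 8, of 22 peroxisome genes 0 and 8, and of 25 pheromone response genes 10 and 2. Without alpha replicate 2 the lower proteasome, peroxisome and glucose-repressed genes numbered 2, 3 and 3. Without scaling the higher ergosterol and lipid genes numbered 2 and 1, and with median centring 5 ergosterol genes were lower. The pheromone genes that were higher included the regulator SST2 (318 and 318 against 167 and 163), FIG1 (54.3 and 49.1 against 16.3 and 16.1) and PRM5 (131 and 139 against 60.3 and 67.6). Of 8 flocculation genes 3 were higher and 1 lower, of 12 seripauperin genes 2 and 2, of 11 COS and DUP240 genes 3 and 3, of 10 maltose and sucrose genes 0 and 3, of 7 galactose genes 2 and 2, PGM2 and GCY1 being the lower ones, and of 9 histone genes 0 and 2. Of 14 genes of DNA damage 1 was higher and 5 lower, of 22 meiosis genes 1 and 1, and of 16 genes of water channels and osmotic transport 2 and 0. Each of these small lists had a count that moved by over 1.5 times in at least 1 refit. Of 8 reference genes 1 was higher, a call lost in several refits, and 0 lower.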

How the data were processed

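Total RNA of each sample was hybridised to 1 Affymetrix yeast array. The authors deposited 1 linear signal intensity per probe set, made with GCOS per the submitters' processing notes, and the version and settings are not stated in them. Genes were named through the platform annotation, with 12 symbols updated by the RefSeq table, which also gave gene order. From there, each array was scaled to an equal 2% trimmed mean over 5498 S. cerevisiae probe sets. An array's background limit was set by its 1746 probe sets for another yeast, at their 95th percentile. A gene, read by its brightest probe set, was tested if above the limit on at least 2 of 18 arrays, which left out 86 and kept 5363. Of those, 104 have probe sets that read related genes. Log2 of the scaled signal plus 16 was fitted in limma 3.58.1 (R 4.3.3) with a mean for each of the 9 groups, an intensity trend and 9 residual degrees of freedom. Every adjusted p is from that fit unless a refit is named, two-sided, by the Benjamini-Hochberg method over all tested genes, with a threshold of 0.05. Only 2 arrays per group limit the precision. The fit was tested on simulated data with differences planted in a small share of the genes. Those data did not pass through the scaling, so the scaling was not tested. The text names the 15 largest differences each way whose arrays do not overlap, up to 4 members per list by adjusted p and called members that oppose their list, all mating-type genes, the 5 largest changes each way between ethanol levels, and genes at background in 1 strain. A few other list members, neighbours and regulators were chosen after their values were seen. The groups, lists and tests were all chosen with earlier results of these data known. The alternatives were other scalings, pseudocounts, filters, sets of arrays in the fit, no intensity trend, a replicate block and leaving out single arrays. Same-numbered arrays of the haploids at 3% had deviations that correlated with r = 0.155, and 11 of 36 pairs of groups passed 0.1, so the numbers were not taken to pair samples. A search of promoters for motifs was not run here. The results of 1 gene list are not reported here.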

Additional observations from a re-analysis of the deposited data

Results flagged for a closer look

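The strain difference itself changed between ethanol levels for some genes, by direct limma tests of the change. From 0% to 3% ethanol it did so positively for 193 genes and negatively for 818, a split that turned to 581 and 330 with median centring. The largest negative changes, on the log2 scale with their SE, were those of ZRT1 (-2.15 ± 0.181, adjusted p = 2.71e-07), ZPS1 (-1.89 ± 0.156, adjusted p = 2.30e-07), YGR035C (-1.58 ± 0.179, adjusted p = 1.27e-05), SNO1 (-1.50 ± 0.143, adjusted p = 1.57e-06) and PAF1 (-1.41 ± 0.215, adjusted p = 2.56e-04). YGR035C had means of 72.2 and 21.1 at 0% and 3% in the strain labelled alpha and of 65.3 and 86.8 in the strain labelled a. PAF1, an RNA polymerase II elongation factor, had 210.1 and 161 against 67.03 and 158. The largest positive changes were those of FMP45 (1.40 ± 0.199, adjusted p = 1.31e-04), HSP12 (1.35 ± 0.184, adjusted p = 8.86e-05), RPI1 (1.33 ± 0.152, adjusted p = 1.28e-05), YPS6 (1.26 ± 0.183, adjusted p = 1.52e-04) and FUR4 (1.26 ± 0.189, adjusted p = 2.18e-04). For FMP45, a membrane protein, the means were 30.8 and 24.02 against 218 and 59.8, and for RPI1, a regulator tied to Ras signalling, 51.7 and 141 against 129 and 118.

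From 3% to 7% ethanol the change was positive for 101 genes and negative for 241. The largest negative ones were those of HXT2 (-3.83 ± 0.158, adjusted p = 2.10e-12), SUT1 (-2.19 ± 0.186, adjusted p = 2.31e-07), MET3 (-2.04 ± 0.153, adjusted p = 4.74e-08), MPC3 (-1.74 ± 0.171, adjusted p = 1.64e-06) and YKR075C (-1.67 ± 0.226, adjusted p = 6.42e-05). SUT1, a regulator of sterol uptake, had means of 208 and 195 at 3% and 7% in the strain labelled alpha and of 92.3 and 451 in the strain labelled a. MPC3, a mitochondrial pyruvate carrier subunit, had 32.4 and 41.8 against 119.9 and 524. The largest positive ones were those of FLO11 (4.15 ± 0.214, adjusted p = 6.95e-11), YER053C-A (1.74 ± 0.153, adjusted p = 3.83e-07), MF(ALPHA)2 (1.69 ± 0.158, adjusted p = 8.67e-07), TPO4 (1.38 ± 0.132, adjusted p = 1.03e-06) and ZPS1 (1.38 ± 0.156, adjusted p = 8.43e-06). FLO11 had means of 41.3 and 909 against 43.5 and 38.5, so the strain labelled alpha alone stood high at 7%, and MF(ALPHA)2 had 3315 and 2207 against 2752 and 556. All 20 of these changes kept their direction in 360 of 360 refits. They were chosen as the largest called changes on these same arrays, which the refits reuse, so this is no independent check.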

How the results depend on the processing

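Of the 255 named genes past the threshold at 3% ethanol, 0 turned direction in any refit. Calls were lost for 51 without scaling between arrays, 19 with median centring, 17 with quantile normalisation, 24 in a fit of the 4 arrays alone and 27 to 42 when 1 of those arrays was left out. The 201 genes with a 2-fold difference kept their calls under the other scalings, pseudocounts, fits and the replicate block, 194 were kept where a gene had to be above the limit on all 4 arrays, which tests fewer genes, and 200 or 201 with 1 array left out. Genes higher in the strain labelled alpha numbered 360 without scaling and 662 to 874 with an array left out, and lower ones 754 to 896. Genes higher by at least 2-fold numbered 31 without scaling, 98 with a pseudocount of 1, 23 with a pseudocount of 64 and 44 to 76 with an array left out. Genes lower by at least 2-fold numbered 90 with a pseudocount of 64, which shrinks folds by construction, and 151 to 160 with an array left out. Over the 49 lists, 177 of 1470 refitted member counts moved by over 1.5 times, 39 of them without scaling and 76 with an array left out. For general stress, trehalose and glycogen, the respiratory chain and the mitochondrial ribosome, 0 did.

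Counts of changed strain differences depended more on the processing, and the cause was not tested. From 0% to 3% ethanol 619 genes passed with quantile normalisation, 353 without scaling, and 609 to 952 with an array left out, 637 without alpha replicate 2 at 3% and 609 without alpha replicate 2 at 0%. The positive ones numbered 581 with median centring, 41 without scaling and 97 to 173 with an array left out, the lowest without alpha replicate 1 at 3%, 113 without alpha replicate 2 at 0% and 107 without a replicate 2 at 0%. The negative ones numbered 350 with quantile normalisation, 330 with median centring, 312 without scaling and 483 to 802 with an array left out, 483 without alpha replicate 2 at 3% and 496 without alpha replicate 2 at 0%. From 3% to 7%, 180 genes passed without scaling and 188 to 296 with an array left out, 195 without alpha replicate 1 at 3%, 192 without alpha replicate 2 at 7% and 188 without a replicate 2 at 7%. The positive ones numbered 25 without scaling and 59 to 88 with an array left out, 61 without either alpha array at 7% and 59 without a replicate 2 at 7%. The negative ones numbered 147 with quantile normalisation, 151 with median centring, 155 without scaling and 121 to 208 with an array left out, 121 without alpha replicate 1 at 3%, 131 without alpha replicate 2 at 7% and 129 without a replicate 2 at 7%.

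With the replicate number as a block, 966 genes were higher and 1025 lower, 55 and 146 by at least 2-fold, and 1030 and 354 genes had changed strain differences. The block lost the calls of HSP150 and MFA1 and of 0 other named genes, and 1 was gained, that of FUS1. Of the 25 named genes not past the threshold, 6 passed it in at least 1 refit: FUS1, MF(ALPHA)2, GPA1, BAR1, RPI1 and YIL046W-A. The numbers mark no shared culture in the labels, so the block is given only as a check. With 1 array left out, the lone array of its group is assumed to vary like the other groups. Signals at or under the background limit give only bounds, and folds of dim genes are shrunk by the pseudocount. The planned description of promoter motifs was not run.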

Other observations

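Of the probe sets that carry the name of no single gene here, 712 lay above the background limit, and at 3% ethanol 20 of them were higher and 47 lower in the strain labelled alpha, 3 and 6 by at least 2-fold. Among the 47 genes with several probe sets, 8 passed the threshold, and 0 of these had another probe set with the opposite sign.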
